A study of Mus musculus with 25 samples.

Results

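The cytochromes P450 are the genes whose symbol on the array began with Cyp and a number, and 73 of the 18193 genes with a value of their own were chosen by that symbol. Together they were read by 98 probe sets, the groups of short oligonucleotides that measure 1 transcript region. Where a gene had more than 1 probe set, as 19 of the 73 did, the one with the highest mean over all 25 arrays was used. The number and letter after Cyp give the subfamily, and the 73 genes fell into 35 subfamilies, of which 26 held 1 gene. The larger ones were CYP2C with 11 genes, CYP2D with 8, CYP4F with 7, CYP2J and CYP3A with 5 each, CYP2B with 4 and CYP4A with 3. One gene, Cyp4f41-ps, is named as a pseudogene.

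These enzymes are haem proteins of the endoplasmic reticulum or the mitochondrion that insert an oxygen atom into lipophilic substrates, using electrons handed on by reductases, cytochrome b5 or adrenodoxin. In liver the first CYP families clear drugs, toxins and steroids, and their genes are switched on by ligand-sensing factors such as the aryl hydrocarbon receptor and the nuclear receptors CAR and PXR. Other members make bile acids from cholesterol, build steroid hormones, inactivate retinoic acid and vitamin D, hydroxylate fatty acids and leukotrienes, or take part in cholesterol synthesis. Gut epithelium and leukocytes carry smaller sets of their own.

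The 25 arrays, 1 per sample, fell into 10 groups. Fetal liver was taken from C57BL/6J fetuses at E14.5 (2 arrays). Adult liver came from C57BL/6J mice (2 arrays) that one label calls freshly harvested liver of 8-week-old animals and another calls hepatocytes freed with collagenase at 10 weeks, so which cells those arrays held was not known. Induced hepatocytes (iHep, 3 arrays of lines labelled independent) were fibroblasts of E13.5 C57BL/6J embryos that had received retroviruses for Foxa1 and Hnf4a and were then cultured with insulin, dexamethasone, nicotinamide and the growth factors HGF and EGF. Engrafted iHep (2 arrays) were cells positive for GFP, sorted from the crypts of dextran sulphate (DSS) damaged colons of Rag2gammac-/- mice 12 days after transplantation. Colon (2 arrays) was dissociated crypts of 8-week-old Rag2gammac-/- mice, for which the labels name no DSS or cells given. Further iHep had received lentiviral scramble or Cdx2 shRNA and 2 days of puromycin (4 arrays each), with the line they came from not given. Induced macrophages (iMac) were made from the pre-B cell line C10, a single line, by 100 nM estradiol with IL-3 and CSF-1, after scramble, Ebf1 or Pou2af1 shRNA and 2 days of puromycin (2 arrays each). No label states that the iMac, liver, colon or shRNA replicates were separate cultures or animals, so p-values measure the spread between these samples, which may be technical.

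Levels are RMA log2 signals, on which a difference of 1 is a change of 2 times. Different probe sets bind with different strength, so a gene's level was compared between groups and not with another gene's. A gene is called present here where its signal exceeded the 40th percentile of the array (a signal of 5.52 to 5.80) on all arrays of a group, and against a group under that line the size of a difference is limited by probe background. The labelled tissues carried their defining genes: a list of 11 measured hepatocyte genes averaged 13.67 to 13.81 per array in adult liver, 9.40 to 9.78 in fetal liver, 5.97 to 8.32 in iHep, 5.64 to 6.34 in engrafted iHep and 5.86 to 6.01 in colon. In iHep the hepatocyte genes Fga, Cps1, Tdo2, G6pc and Serpinc1 were under the 40th percentile on every array. A list of 11 colon epithelium genes averaged 11.91 to 12.07 in colon, 10.95 to 11.38 in engrafted iHep and 6.75 to 7.24 in iHep. Several arrays stood apart. iHep replicate 1 had the lowest hepatocyte list of its group (5.97) and the lowest fibroblast list (5.88 against up to 7.72). Engrafted replicate 2 had a fibroblast list of 8.77 against 6.49 in replicate 1 and a macrophage list of 7.05 against 5.46. The Y-linked gene Eif2s3y, looked at after values were seen, was at 9.33 and 9.27 in engrafted iHep but at 3.48 to 3.81 in cultured iHep and at 6.25 and 6.36 in colon, and Kdm5d, also Y-linked, was at 9.14 and 9.67 against at most 5.03 in iHep and 4.90 in colon. The engrafted arrays thus held Y-linked RNA that the cultured lines lacked. What that does to the P450 comparisons between them was not tested.

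Adult liver was the group in which the P450 genes stood high. Of the 73 genes, 55 were present in adult liver (75.3%, against 66.8% of all genes), 32 in fetal liver (43.8% against 70.3%) and 23 in iHep (31.5% against 68.8%). The count was 25 in scramble iHep (34.2% against 69.3%), 21 in Cdx2 shRNA iHep (28.8% against 68.7%), 26 in engrafted iHep (35.6% against 65.0%) and 28 in colon (38.4% against 65.7%). The iMac groups with scramble, Ebf1 and Pou2af1 shRNA had 14, 13 and 13 (19.2%, 17.8% and 17.8% against 63.7%, 64.0% and 63.3%). A signal above 10 on every array was found for 37 genes in adult liver, 7 in colon, 4 in scramble iHep, 3 in engrafted iHep, 2 in iHep and 1 in fetal liver. Over all genes the shares above 10 were, in that order, 10.4%, 16.8%, 17.0%, 13.7%, 15.5% and 14.3%. The median level of the 73 was 10.34 in adult liver and 5.37 in fetal liver, 5.13 in iHep, 5.27 in engrafted iHep and 4.80 in colon. For 54 of the 73 the highest group mean was in adult liver. In 45 of these the 2 adult liver arrays were present and lay above every other array. The shares of all genes that did so were not counted, so both numbers only describe the members.

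**Figure D1:**
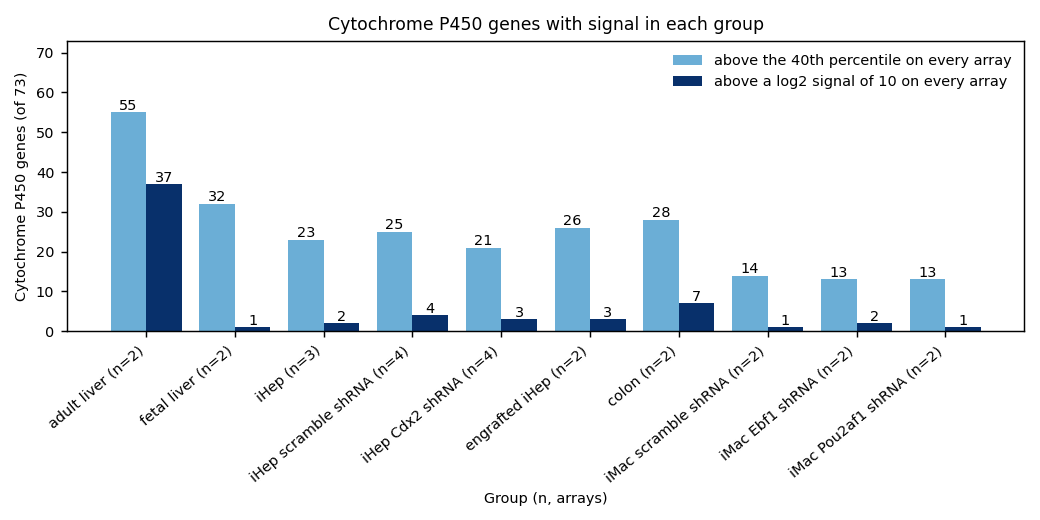
Bars give the number of the 73 cytochrome P450 genes whose signal exceeded the 40th percentile (light) or above a log2 signal of 10 (dark) on every array of each group. Adult liver holds 55 and 37 genes, and no other group has more than 32 and 7.

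The genes split by how widely they were present. In adult liver and no other group 16 were present: Cyp1a2, Cyp2b9, Cyp2b13, Cyp2c37, Cyp2c38, Cyp2c50, Cyp2c54, Cyp2g1, Cyp2j5, Cyp2r1, Cyp3a16, Cyp3a25, Cyp4a14, Cyp4a31, Cyp7a1 and Cyp7b1. In all 10 groups 8 were present: Cyp51, the lanosterol demethylase of cholesterol synthesis, the orphan enzyme Cyp20a1, the fatty acid hydroxylases Cyp4v3, Cyp4f13 and Cyp4f16, and Cyp2d40, Cyp21a1 and Cyp24a1. Cyp24a1, which degrades active vitamin D, was only just above the line, at 5.69 to 6.97 over all arrays. In no group were 11 present, among them the adrenal enzymes Cyp11b1 and Cyp11b2, the vitamin D activating enzyme Cyp27b1, Cyp2b19, Cyp2j13, Cyp4x1 and the pseudogene Cyp4f41-ps.

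**Figure D2:**
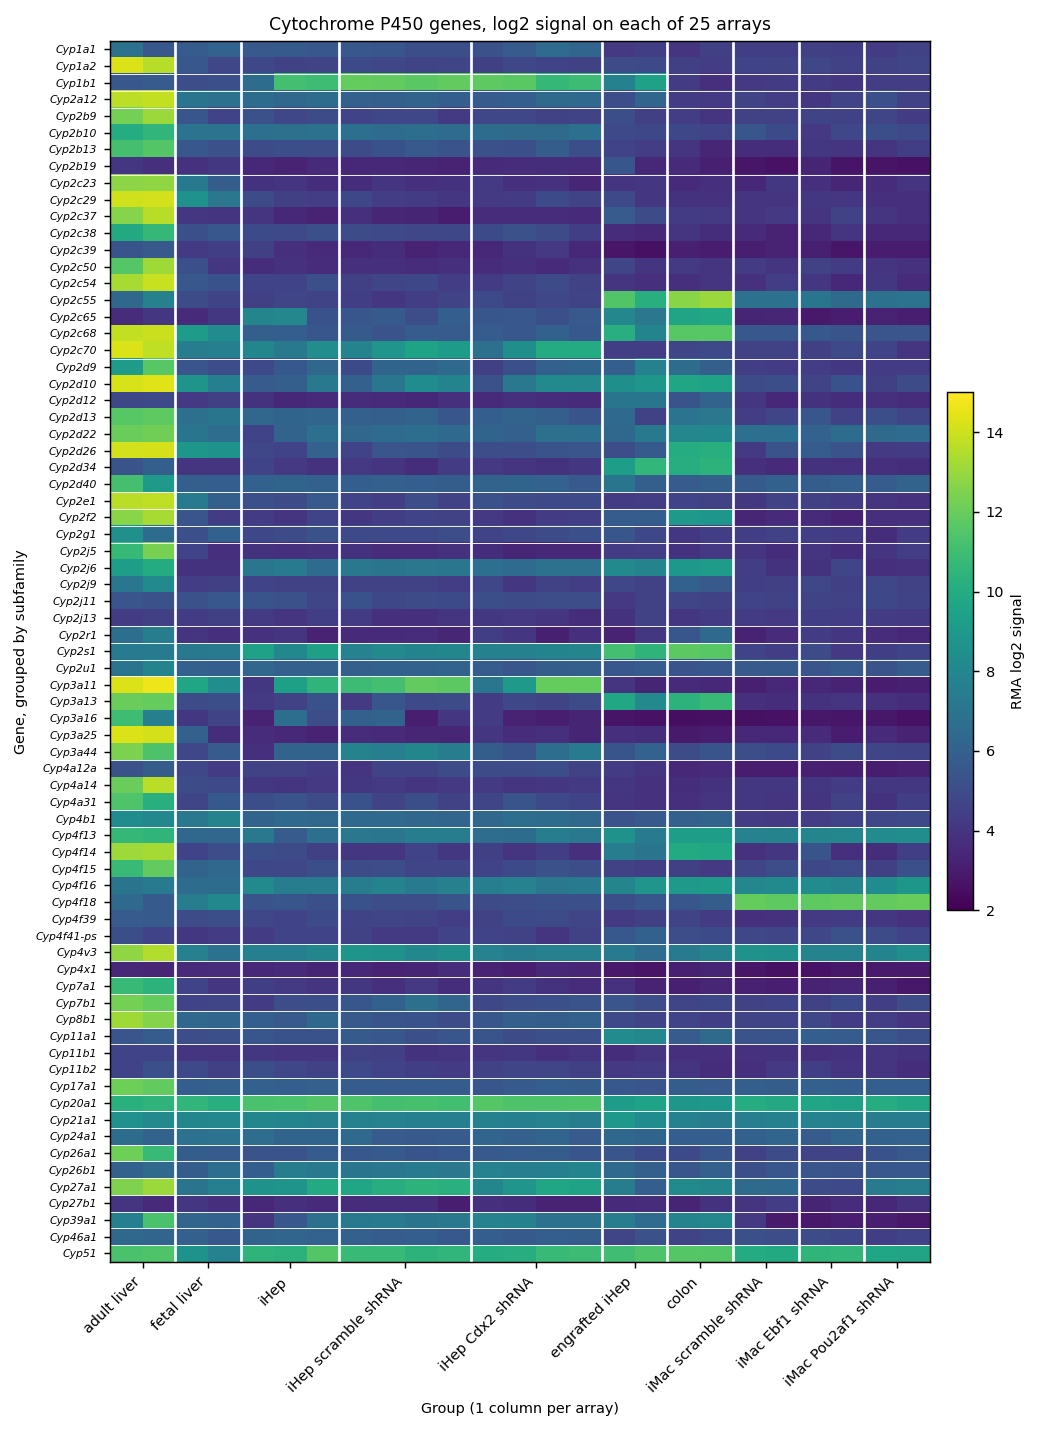
Each row is 1 of the 73 genes ordered by subfamily, each column 1 of the 25 arrays, and the colour is the RMA log2 signal. Adult liver is bright in most rows of CYP2C, CYP2D, CYP3A and CYP4A, colon and engrafted iHep are bright for Cyp2c55, Cyp2s1, Cyp2d34 and Cyp3a13, the iHep groups for Cyp1b1 and Cyp20a1, and the iMac groups for Cyp4f18.

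Some close relatives differed in how their signal was spread over the groups. The promoters below (250 bases before to 50 after the RefSeq start, build GRCm38.p6) belong to 3 pairs of such relatives and to Cyp1b1, which stood high in iHep. Only Cyp2c29 and Cyp2c55 had their highest means in different groups, adult liver and colon. In the CYP1A and CYP3A pairs both genes had it in adult liver, though Cyp1a1 was not present there. Cyp1a1 (chr9:57697363-57697662, plus strand) and Cyp1a2 (chr9:57683606-57683905, minus strand) are neighbours without another Cyp gene between them. Cyp2c29 (chr19:39286835-39287134, plus strand) and Cyp2c55 (chr19:39006769-39007068, plus strand) stand in a row of 14 Cyp2c genes. Cyp3a11 (chr5:145879805-145880104, minus strand) lies in a row of 8 Cyp3a genes, and Cyp3a13 (chr5:137921570-137921869, minus strand) on the same chromosome outside it. Cyp1b1 is at chr17:79715012-79715311, minus strand. Capitals mark TATAAA, the TATA box letters, and GCGTG, the core bound by the aryl hydrocarbon receptor, on either strand, so that CACGC is GCGTG on the other strand.
Cyp1a1: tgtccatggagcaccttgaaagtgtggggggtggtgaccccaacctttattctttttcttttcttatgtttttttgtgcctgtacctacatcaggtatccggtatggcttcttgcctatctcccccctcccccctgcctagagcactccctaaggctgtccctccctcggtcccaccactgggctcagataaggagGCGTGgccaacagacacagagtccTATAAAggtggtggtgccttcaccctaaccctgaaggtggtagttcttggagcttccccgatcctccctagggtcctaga
Cyp1a2: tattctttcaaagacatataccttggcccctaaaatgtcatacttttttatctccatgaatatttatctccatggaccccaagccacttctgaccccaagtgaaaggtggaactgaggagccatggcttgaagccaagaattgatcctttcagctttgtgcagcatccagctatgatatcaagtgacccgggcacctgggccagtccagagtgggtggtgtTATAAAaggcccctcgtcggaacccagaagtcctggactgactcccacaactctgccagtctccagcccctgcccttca
Cyp2c29: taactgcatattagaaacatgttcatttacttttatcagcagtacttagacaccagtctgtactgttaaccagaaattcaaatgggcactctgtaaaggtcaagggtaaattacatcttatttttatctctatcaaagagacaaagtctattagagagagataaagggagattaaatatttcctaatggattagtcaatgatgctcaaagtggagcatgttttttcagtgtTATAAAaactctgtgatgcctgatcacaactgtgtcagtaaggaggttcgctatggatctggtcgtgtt
Cyp2c55: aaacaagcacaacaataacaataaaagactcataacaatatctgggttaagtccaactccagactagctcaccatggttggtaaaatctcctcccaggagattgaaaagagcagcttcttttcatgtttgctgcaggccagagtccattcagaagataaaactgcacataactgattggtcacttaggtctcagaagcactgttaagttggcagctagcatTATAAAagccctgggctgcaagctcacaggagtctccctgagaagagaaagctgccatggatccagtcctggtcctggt
Cyp3a11: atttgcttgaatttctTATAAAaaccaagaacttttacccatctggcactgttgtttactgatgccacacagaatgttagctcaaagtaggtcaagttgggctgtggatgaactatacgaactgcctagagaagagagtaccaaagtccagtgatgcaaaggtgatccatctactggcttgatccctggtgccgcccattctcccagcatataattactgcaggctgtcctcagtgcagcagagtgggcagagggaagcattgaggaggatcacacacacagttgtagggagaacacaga
Cyp3a13: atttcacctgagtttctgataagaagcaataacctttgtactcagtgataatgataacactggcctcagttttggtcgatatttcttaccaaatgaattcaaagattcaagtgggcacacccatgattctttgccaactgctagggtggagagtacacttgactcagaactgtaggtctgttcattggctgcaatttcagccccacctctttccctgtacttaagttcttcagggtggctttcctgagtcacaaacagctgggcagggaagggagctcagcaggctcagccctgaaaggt
Cyp1b1: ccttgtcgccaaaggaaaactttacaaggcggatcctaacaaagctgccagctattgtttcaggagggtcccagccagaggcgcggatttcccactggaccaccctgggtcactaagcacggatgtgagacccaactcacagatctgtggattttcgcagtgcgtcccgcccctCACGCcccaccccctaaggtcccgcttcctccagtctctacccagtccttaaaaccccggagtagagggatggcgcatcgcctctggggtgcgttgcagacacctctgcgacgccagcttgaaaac

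In both CYP1A promoters TATAAA began in the 40 bases before the start, and the AHR core stood in Cyp1a1 and not in Cyp1a2. Cyp1a2, a constitutive liver enzyme, was at 14.30 and 13.59 in adult liver and at 4.38 to 5.54 on every other array, whereas Cyp1a1, its inducible neighbour, was at 6.91 and 5.54 in adult liver and at 4.03 to 6.53 elsewhere. Cyp2c29, an arachidonate-metabolising liver enzyme, was at 14.06 and 14.10 in adult liver and at 3.91 and 3.85 in colon, and Cyp2c55, an enzyme of gut epithelium, was at 6.35 and 7.64 in adult liver and at 12.70 and 13.05 in colon. Both promoters hold TATAAA close to the start and were 53.6% identical. Cyp3a11, the main drug-clearing CYP3A of mouse liver, was at 14.29 and 14.67 in adult liver and at 3.54 and 3.51 in colon. Its relative Cyp3a13 was high in both, at 12.03 and 11.92 and at 10.40 and 10.77. Their promoters were 53.7% identical, with TATAAA far upstream in Cyp3a11 and none in Cyp3a13.

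Promoters were listed for 52 of the 73 genes. TATAAA on either strand stood in 21 of them (40.4%), against 15.7% of 27025 genes of the same table. On the coding strand between 40 and 20 bases before the start it stood in 7 of 52 (2.41% of all genes): Cyp1a1, Cyp1a2, Cyp2a12, Cyp2c38, Cyp2c55, Cyp2e1 and Cyp8b1. The other letters searched, on both strands, were GCGTG in 14 (26.9% against 35.2%), GTTAAT, an HNF1 motif, in 3 (5.77% against 8.24%), TTTATG, a core bound by CDX factors, in 7 of 52 (13.6% of all genes), CAAGGTCA, a site of LRH-1, in 0 (0% against 1.76%) and the direct repeat DR1, bound by HNF4 and by RXR with its partners, in 0 (0% against 0.0481%). TTTATG was found in Cyp2b10, Cyp2b19, Cyp2c37, Cyp2c50, Cyp2j5, Cyp3a44 and Cyp8b1, none of which had its highest mean in colon. These shares are descriptions, and relatives are not independent. The 84 promoter pairs within a subfamily were 41.3% to 99.3% identical (median 51.4%) and the 1242 pairs across subfamilies had a median of 45.8%. The closest pair, Cyp2b9 and Cyp2b13 at 99.3%, were both present in adult liver alone.

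Between E14.5 and adulthood most P450 genes of liver differed, and nearly always with less RNA in the fetus. Of 62 genes tested, 49 were lower in fetal than in adult liver, 1 was higher and 12 did not pass (limma, adjusted p under 0.05). Over all genes tested 18.2% were lower, 31.1% higher and 49.3% either. The median difference was −5.20 over the 62 and −4.75 over all 73, against 0.16 over all genes tested. A gene present in adult liver alone entered the test through the group where it was high, so the count describes these genes and carries no further weight. Without the filter on dim genes 53 of 73 were lower. Fetal liver is a blood-forming organ: 7 of 7 measured erythroid genes were higher there, with list means of 12.66 to 12.93 against 6.59 to 7.14. A bulk array cannot tell fewer hepatocytes from less RNA per hepatocyte. Albumin, Alb, was at 14.30 and 14.16 in fetal and at 14.99 and 14.75 in adult liver.

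Among the drug and toxin enzymes the widest differences were in Cyp3a25, Cyp2c37, Cyp1a2, Cyp4f14, Cyp2c54 and Cyp2f2. Cyp3a25 was at 5.98 and 3.71 in fetal and at 14.33 and 14.15 in adult liver, a difference of −9.39 ± 0.56 (SE, adjusted p = 1.42e-06). Cyp2c37 differed by −9.11 ± 0.36 (adjusted p = 2.31e-07) and Cyp1a2 by −8.80 ± 0.31 (adjusted p = 1.39e-07). Cyp2f2, which activates naphthalene in airway and liver, differed by −8.13 ± 0.38, and Cyp2e1, the ethanol-oxidising enzyme, was at 7.30 and 5.94 against 13.67 and 13.74 (−7.08 ± 0.39). In these genes the fetal and adult arrays lay far apart with no overlap. A smaller set already had signal in the fetus. Cyp3a11 was at 9.66 and 8.37 (−5.46 ± 1.60, adjusted p = 0.0171), a call that ended without fetal replicate 2 or either adult array (−6.11 to −4.82). Cyp2c29 was at 8.62 and 7.17, Cyp2c68 at 9.15 and 8.29, Cyp2d10 at 8.73 and 7.60 and Cyp2d26 at 8.89 and 8.67, all below both adult arrays. Replicate 1 was the higher fetal array in each of these 5 genes, and in 5 of the 32 genes present in fetal liver the 2 arrays differed by over 1 (15.6%, against 2.02% of all genes).

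The enzymes of bile acid synthesis followed the same direction. Cyp7a1, the rate-limiting step of the classical pathway, was at 4.60 and 4.07 in fetal and at 10.83 and 10.41 in adult liver (−6.29 ± 0.29, adjusted p = 3.81e-07). Cyp8b1, which sets the share of cholic acid, differed by −6.59 ± 0.29, the oxysterol hydroxylase Cyp7b1 by −7.42 ± 0.30 and Cyp2c70, which makes the muricholic acids of rodents, by −6.48 ± 0.34. Cyp27a1, the mitochondrial sterol hydroxylase that starts the alternative pathway, was present in the fetus at 7.01 and 7.63, and differed by −5.42 ± 0.57. Cyp39a1, another oxysterol hydroxylase, was at 6.22 and 6.08 against 7.62 and 11.29 (−3.30 ± 1.10, adjusted p = 0.0303), and its call ended without adult replicate 2 (−1.47) and without either fetal array. Of the retinoic acid hydroxylases, Cyp26a1 differed by −5.69 ± 0.42 and Cyp26b1 by 0.04 ± 0.53, with fetal arrays at 5.84 and 6.72 around the adult ones. Cyp17a1, a steroidogenic enzyme, was at 5.89 and 6.01 against 12.12 and 11.90 (−6.06 ± 0.20, adjusted p = 1.32e-07).

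Cyp51, of cholesterol synthesis, was also lower. It was at 8.69 and 7.76 in fetal liver, the lowest 2 of the 25 arrays, and differed by −3.12 ± 0.42 (adjusted p = 0.000168). Cyp20a1 was at 10.57 and 10.14 against 10.24 and 10.44 (0.01 ± 0.23), and Cyp2s1, an enzyme of epithelia outside the liver, at 7.28 and 7.34 against 7.36 and 7.29 (−0.01 ± 0.43), both with overlapping arrays. Cyp4f18, the leukotriene hydroxylase of leukocytes, was the 1 gene higher in the fetus, at 7.50 and 8.09 against 6.46 and 5.67 (1.73 ± 0.32, adjusted p = 0.00136). Its level was 11.79 to 11.96 on the 6 iMac arrays. Its other probe set, with means of 5.47 in fetal and 5.54 in adult liver, showed no such difference. Macrophage markers were present in both livers, with list means of 9.47 to 10.10 in fetal and 8.93 to 10.97 in adult liver, and their part in the Cyp4f18 difference was not tested.

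**Figure D3:**
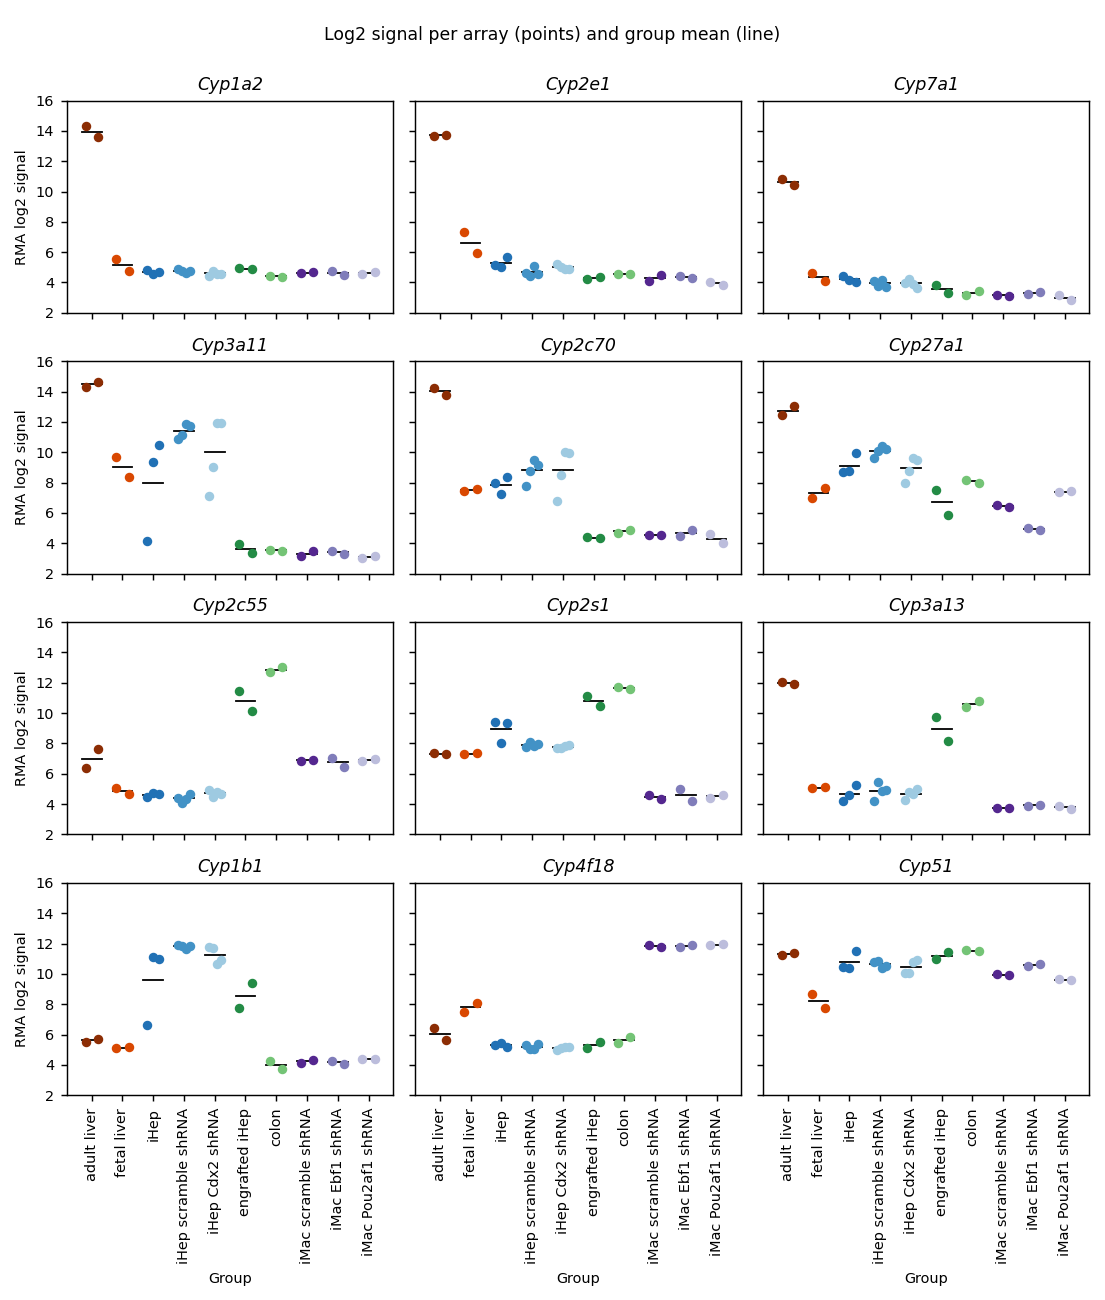
Points are the RMA log2 signals of single arrays and lines the group means for 12 genes in the 10 groups. Cyp1a2, Cyp2e1 and Cyp7a1 are high in adult liver alone, Cyp3a11, Cyp2c70 and Cyp27a1 also carry signal in fetal liver and most iHep arrays, Cyp2c55, Cyp2s1 and Cyp3a13 are high in colon and engrafted iHep, and Cyp1b1 and Cyp4f18 mark the iHep and iMac groups.

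The 2 adult liver arrays were less alike in P450 genes than in genes at large. Of the 55 present, 14 differed by over 1 between them (25.5%, against 8% of all genes present). Cyp39a1 was at 7.62 in replicate 1 and 11.29 in replicate 2, and Cyp2d9, known to be higher in male liver, at 9.14 and 11.60. Cyp3a16, a CYP3A of young mouse liver, was at 10.97 and 7.60 and Cyp2d40 at 11.17 and 9.03. Cyp2j5 (10.69 and 12.34), Cyp4a14 (12.05 and 13.64) and Cyp2c50 (11.59 and 13.17) were higher in replicate 2, and Cyp26a1 (12.13 and 10.78) and Cyp4a31 (11.41 and 10.21) in replicate 1. Other genes that parted the same 2 arrays were the Kupffer cell gene Vsig4 (12.34 and 10.02), the clock-controlled factor Dbp (8.40 and 4.65) and Bcl6 (6.85 and 9.54). Their part in the P450 differences was not tested. Leaving out either adult array lowered the calls of fetal against adult liver from 50 to 37 or 36, in fits that also tested fewer of the genes, 51 against 62.

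Several mouse P450s are known to differ by sex in liver, and genes of both kinds had signal on the adult arrays. The female-predominant Cyp2b9 was at 12.30 and 13.02, Cyp2b13 at 11.15 and 11.51 and Cyp3a44 at 12.43 and 11.38, each higher than on every array of another group. Of the male-predominant genes, Cyp2d9 was at 9.14 and 11.60 and Cyp4a12a at 5.20 and 5.82, close to the 40th percentile. Xist, the RNA of the inactive X chromosome, was at 14.01 and 14.03 and the Y-linked Eif2s3y at 3.56 and 3.48 on the same arrays, genes chosen after values were seen. In fetal liver Eif2s3y was at 9.38 and 10.15 with Xist at 11.73 and 11.89. Sex and stage therefore cannot be told apart in the comparison of fetal with adult liver, for Cyp2b9, Cyp2b13 and Cyp3a44 or for any other gene.

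Most P450 genes tested had less signal in the cultured iHep lines than in adult liver. Of the 62 genes tested 49 were lower in iHep than in adult liver, 4 were higher and 9 did not pass, against 18.2% lower, 37.8% higher and 55.9% either over all genes. The median was −5.44, against 0.26 over all genes tested. As in the comparison with fetal liver, genes present in adult liver alone entered through that group, so this count too is a description. Without the filter on dim genes 53 of 73 were lower. Cyp1a2, Cyp2c29, Cyp2c37, Cyp2d26 and Cyp3a25 differed by −9.27 ± 0.28, −9.48 ± 0.41, −9.55 ± 0.33, −8.97 ± 0.39 and −10.75 ± 0.51, with iHep under the 40th percentile for all but 1 array of Cyp2d26. The bile acid genes Cyp7a1 (at most 4.42), Cyp7b1 (4.31, 5.08 and 5.14) and Cyp8b1 (5.91, 5.64 and 6.39) stayed near or under that line in all 3 lines, and differed from adult liver by −6.42 ± 0.27, −7.24 ± 0.28 and −6.90 ± 0.27. A few liver genes had clear signal in the lines. Cyp2c70 was at 7.97, 7.27 and 8.39 (−6.14 ± 0.31) and Cyp27a1 at 8.67, 8.74 and 9.94 (−3.63 ± 0.52, adjusted p = 0.000212). Cyp51 was at 10.46, 10.36 and 11.51 and did not pass against adult liver (−0.56 ± 0.38).

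Cyp3a11 separated the lines. It was at 4.13 in replicate 1, at 9.37 in replicate 2 and at 10.50 in replicate 3, so that replicate 1 was close to the colon arrays and the others were within or above the fetal liver range. Against adult liver it differed by −6.48 ± 1.46 (adjusted p = 0.00374), and by −7.73 to −4.55 when 1 array was left out. The same order was seen for the hepatocyte list mean, lowest in replicate 1. Cyp1b1, which metabolises oestrogen and retinoids in mesenchymal tissue, was at 6.62, 11.14 and 10.98 and was higher than in adult liver by 3.96 ± 1.14 (adjusted p = 0.0141) and than in fetal liver by 4.45 ± 1.14 (adjusted p = 0.0137). Both calls ended without either array of the liver group. Its second probe set averaged 7.36 in iHep, 3.95 in adult and 3.26 in fetal liver. The prostacyclin synthase Ptgis, a P450 enzyme with another symbol, was at 5.68, 9.88 and 10.00 in the same order. The 7 genes of the fibroblast list did not all share that order. Col1a2 was at 6.53, 9.52 and 11.23 and Twist1 at 9.36, 9.35 and 9.14. Thy1 and Postn were not above the 40th percentile on any iHep array. Their part in the Cyp1b1 level was not tested.

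The other 3 genes higher in iHep than in adult liver were Cyp2c65, Cyp2s1 and Cyp20a1. Cyp2c65, a gut enzyme, was at 7.92 and 8.02 in replicates 1 and 2 and at 5.27 in replicate 3, against 3.67 and 4.08 in adult liver (3.19 ± 0.71, adjusted p = 0.0035). Cyp2s1 was at 9.42, 8.05 and 9.37 (1.63 ± 0.39, adjusted p = 0.00539). Cyp20a1 was at 11.29, 11.32 and 11.50 (1.02 ± 0.21, adjusted p = 0.00222). The calls of Cyp2s1 and Cyp20a1 ended when quantile normalization was repeated over these arrays.

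Set against fetal liver, iHep differed less. Of 62 genes 8 were higher, 9 lower and 45 did not pass, against 19.9% higher, 13.1% lower and 33% either over all genes, a share close to the background. Higher were Cyp1b1, Cyp2c65, Cyp2j6 (7.10, 7.40 and 6.56 against 3.91 and 3.88, 3.13 ± 0.31, adjusted p = 4.77e-05), Cyp51 (2.55 ± 0.38), Cyp27a1 (1.80 ± 0.52, adjusted p = 0.0231), Cyp2s1, Cyp4f16 and Cyp20a1. Cyp2j6 is an arachidonic acid epoxygenase of gut and liver. Lower were Cyp2d26 (4.76, 4.63 and 6.07 against 8.89 and 8.67, −3.62 ± 0.39, adjusted p = 9.42e-05), Cyp2c29 (−3.29 ± 0.41), Cyp2c68 (−2.95 ± 0.56), Cyp2c23 (−2.69 ± 0.35), Cyp4f18, Cyp2d10, Cyp2e1, Cyp4f15 and Cyp4b1. Cyp3a11 lay between, at −1.02 ± 1.46 (adjusted p = 0.657), an error too wide to call the groups alike. Without fetal replicate 1 the 17 calls were 10, and the call of Cyp27a1 ended without iHep replicate 3 or either fetal array.

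Colon crypts had a P450 set of their own. Against colon, adult liver was higher in 48 of 62 genes and lower in 6, over a background of 24.8% higher, 35.9% lower and 60.7% either. The same holds for this count, since the adult arrays brought genes into the test. Without the filter 54 of 73 were higher and 6 lower. Lower in liver were Cyp2c55 (−5.88 ± 0.48), Cyp2c65 (3.67 and 4.08 against 9.61 and 9.82, −5.84 ± 0.78, adjusted p = 0.000143), Cyp2d34 (5.35 and 5.94 against 10.11 and 10.41, −4.62 ± 0.42), Cyp2s1 (7.36 and 7.29 against 11.72 and 11.60, −4.33 ± 0.43), Cyp4f16 (−1.92 ± 0.33) and Cyp2d12 (−0.92 ± 0.28). Above 10 on every array of both organs were Cyp51 (11.27 and 11.41 against 11.56 and 11.51, −0.20 ± 0.42, not passed), Cyp2d26 (14.09 and 14.15 against 10.06 and 10.14, 4.02 ± 0.43), Cyp3a13 (1.39 ± 0.48, adjusted p = 0.03) and Cyp2c68, at 13.79 and 13.94 against 11.63 on both colon arrays (2.24 ± 0.61). The Cyp3a13 call ended without any 1 of the 4 arrays (adjusted p = 0.0632 to 0.139). The call of Cyp2d12 ended without either adult array, without colon replicate 2 and with the arrays centred on their median. The colon arrays were alike: 0 of the 28 genes present differed by over 1.

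Cultured iHep differed from colon in both directions. Of 62 genes 14 were higher and 18 lower in iHep than in colon (32.3% higher, 21.3% lower and 53.6% either over all genes). The members' share of 51.6% was thus near the background. Lowest were Cyp2c55 (4.48, 4.72 and 4.68, −8.25 ± 0.43, adjusted p = 6.91e-07), Cyp2d34 (−6.04 ± 0.38), Cyp3a13 (−5.91 ± 0.44), Cyp2c68 (−5.85 ± 0.56), Cyp4f14, an omega-hydroxylase (−5.04 ± 0.27), and Cyp2d26 (−4.94 ± 0.39). Highest were Cyp1b1 (5.58 ± 1.14), Cyp3a11 (4.47 ± 1.46, adjusted p = 0.0267), Cyp2c70 (3.08 ± 0.31), Cyp20a1 (2.45 ± 0.21), Cyp2a12 (2.29 ± 0.30) and Cyp2b10, a target of the receptor CAR (2.12 ± 0.21). The second probe set of Cyp20a1 averaged 7.29 in iHep and 8.25 in colon, the other way (−0.96), a difference that was not tested. The Cyp3a11 call ended without iHep replicate 2 or 3 or either colon array. With iHep replicate 1 left out the difference was 6.41.

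After 12 days in the damaged colon, the sorted cells differed from the cultured lines in both directions. Of 62 genes 14 were higher in engrafted than in cultured iHep and 14 lower, against 18.2% higher, 29.7% lower and 48% either over all genes, so the members' share of 45.2% was near the background. The higher genes included several that stood high in colon, and Cyp2d12, which was not present there (mean 5.76). Of those high in colon, Cyp3a13 and Cyp2c68 had their highest means in adult liver (11.97 and 13.87). Cyp2c55 was at 11.46 and 10.15 against 4.48 to 4.72 (6.18 ± 0.43, adjusted p = 6.35e-06). Cyp2d34 was at 9.26 and 10.60 against 3.88 to 4.61 (5.71 ± 0.38, adjusted p = 4.85e-06). Cyp3a13 was at 9.72 and 8.13 (4.25 ± 0.44), Cyp2d12 at 7.05 and 7.06 (3.41 ± 0.25), Cyp2c68 at 10.19 and 7.85 (3.25 ± 0.56) and Cyp2s1 at 11.13 and 10.48 (1.86 ± 0.39). In each of these genes both engrafted arrays lay above all 3 lines. Colon epithelium genes moved with them, 11 of 11 higher with a median of 4.90.

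Among the lower genes were liver P450s that the cultured lines carried. Cyp3a11 was at 3.97 and 3.33 against 4.13, 9.37 and 10.50 (−4.35 ± 1.46, adjusted p = 0.0334), under the 40th percentile and at the level of colon. Its call ended without either engrafted array and without iHep replicate 2 or 3. Cyp2c70 was at 4.39 and 4.34 against 7.27 to 8.39 (−3.51 ± 0.31, adjusted p = 2.39e-05). Cyp27a1 was at 7.53 and 5.88 against 8.67 to 9.94 (−2.42 ± 0.52, adjusted p = 0.00388). Its call ended with its probe sets averaged (−0.76, adjusted p = 0.0657), and its other probe set, dim in both groups, averaged 4.02 against 3.13, the other way. Cyp20a1 was at 9.21 and 9.55 against 11.29 to 11.50 (−1.99 ± 0.21), although its second probe set averaged 8.03 against 7.29, the other way. Cyp2b10 (−1.98 ± 0.21) and Cyp2c38 (−1.42 ± 0.26) also passed, the latter with both groups under the 40th percentile. Of 11 hepatocyte markers 3 were lower and 0 higher, a share close to the 29.7% of all genes that were lower. Hpx, 1 of the 3, was at 4.65 and 4.23 against 8.01 to 12.14.

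**Figure D4:**
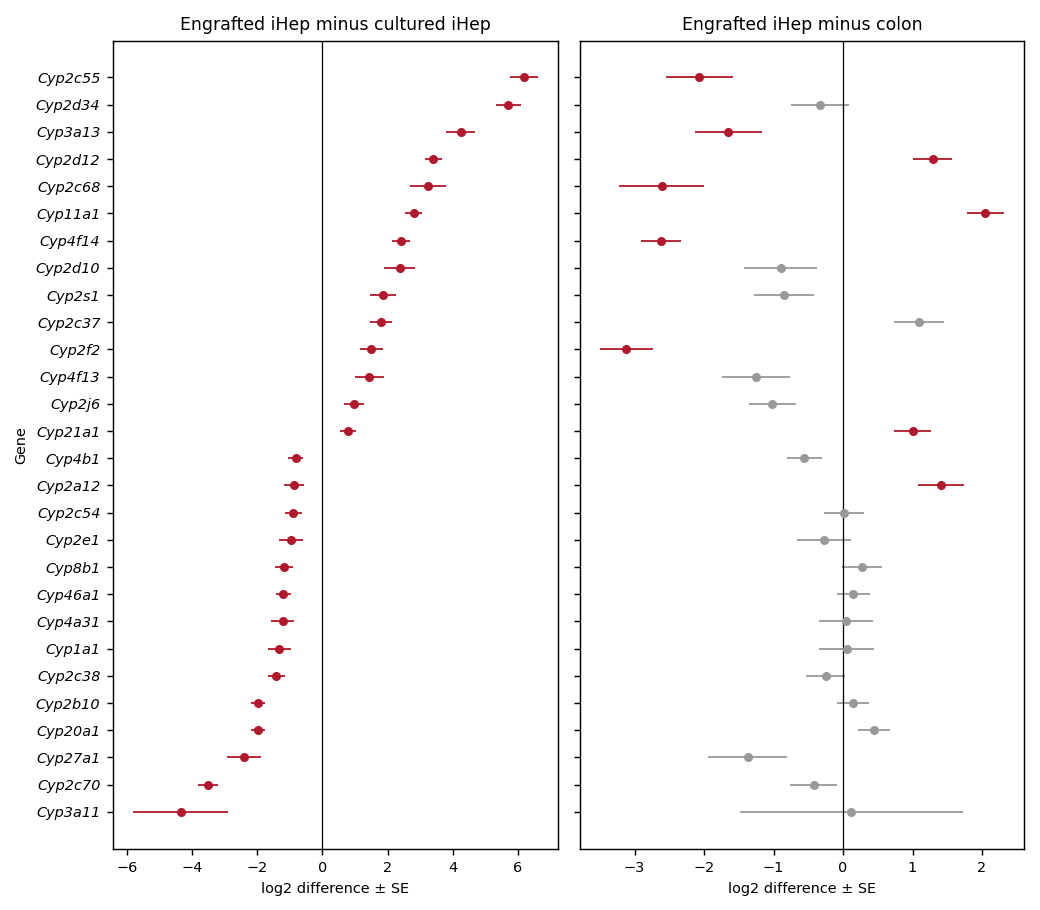
Points are log2 differences of engrafted iHep from cultured iHep (left) and from colon (right) with limma's SE, for the 28 genes that passed against cultured iHep, in red where the adjusted p was under 0.05 and grey where not. Cyp2c55, Cyp2d34 and Cyp3a13 lie at 4.25 to 6.18 on the left, and on the right Cyp2c55 and Cyp3a13 are below 0, Cyp2d34 is grey and Cyp11a1 is at 2.05.

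Compared with colon crypts, the engrafted cells still differed in 13 of 62 genes, 5 higher and 8 lower, near the background of 7.1% higher, 9.66% lower and 16.8% either. Cyp2d26 was at 5.09 and 5.68 against 10.06 and 10.14 (−4.72 ± 0.43, adjusted p = 0.000222), Cyp2f2 at 5.77 and 5.82 against 9.02 and 8.81 (−3.12 ± 0.38) and Cyp4f14 at 7.53 and 6.99 against 9.97 and 9.79 (−2.62 ± 0.29). Cyp2c68 (−2.61 ± 0.61), Cyp2r1, a vitamin D hydroxylase (−2.28 ± 0.43), Cyp2c55 (−2.07 ± 0.48), Cyp3a13 (−1.65 ± 0.48) and Cyp2j9 (−1.15 ± 0.33) were lower too. The Cyp3a13 call ended without engrafted replicate 2 (−0.86), without either colon array, with the replicate block and with quantile normalization repeated. The calls of Cyp2c68 and Cyp2c55 ended without either colon array, that of Cyp2c55 also without engrafted replicate 2 (−1.41), and that of Cyp2r1 without colon replicate 2. Cyp2d34 (−0.33 ± 0.42), Cyp2s1 (−0.85 ± 0.43) and Cyp51 (−0.33 ± 0.42) did not pass. Higher than colon were Cyp1b1, at 7.73 and 9.42 against 4.26 and 3.73 (4.57 ± 1.25, adjusted p = 0.0354), Cyp11a1 at 8.28 and 8.04 against 5.73 and 6.49 (2.05 ± 0.27, adjusted p = 0.00155), Cyp2a12, Cyp2d12 and Cyp21a1. The Cyp1b1 level was higher in the array with the higher fibroblast list, replicate 2, and its call ended without that array (3.73) or either colon array. Cyp2a12 was present in neither group (means of 5.66 and 4.25). The calls of Cyp2a12 and Cyp21a1 ended without either colon array and that of Cyp2d12 without colon replicate 1. That of Cyp21a1 also ended with probe sets averaged (0.59), with median centring and without engrafted replicate 1 (0.68). Without colon replicate 1 or without colon replicate 2 the 13 calls were 5.

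Cyp11a1, the enzyme that begins steroid synthesis by cutting the side chain of cholesterol, had its highest mean in engrafted iHep, 2.80 ± 0.25 above cultured iHep (adjusted p = 2.56e-05) and above every array of every other group. Its other probe sets did not show this to the same extent, with group means of 5.82 against 5.09 in cultured iHep and 5.13 in colon for one and 3.73, 3.84 and 3.70 for the other. Which transcript the used probe set reads was not tested.

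Cdx2 shRNA in iHep changed few P450 genes. Cdx2 itself was lower by 1.16 ± 0.12 (adjusted p = 0.00397). In the fit without pairs 1 of 35 genes tested rose and 1 fell, against 0.535% higher, 1.68% lower and 2.21% either over all genes. Cyp4v3, a fatty acid hydroxylase, was at 8.72, 8.63, 8.06 and 8.46 with scramble and at 7.77, 7.52, 7.67 and 7.67 with Cdx2 shRNA, with no overlap (−0.81 ± 0.14, adjusted p = 0.0284). Cyp26b1, which degrades retinoic acid, rose from 7.07, 7.10, 7.35 and 7.15 to 7.78, 7.57, 7.59 and 7.87 (0.53 ± 0.10, adjusted p = 0.036). The call of Cyp26b1 ended in 7 of the 8 fits that left out 1 array and that of Cyp4v3 in 6 of 8, with differences of 0.48 to 0.59 and −0.94 to −0.72. Arrays of the same replicate number deviated together, and with the number as a block 4 genes passed, 1 higher and 3 lower. The share of all genes passing with the block was not counted, so this number only describes the members. The added genes were both in bile acid synthesis. Cyp7b1 was at 5.50, 6.05, 6.79 and 6.24 against 4.81, 5.08, 5.16 and 5.32 (−1.05 ± 0.16, adjusted p = 0.025 with the block and 0.0655 without). Cyp27a1 was at 9.62, 10.11, 10.42 and 10.24 against 7.96, 8.80, 9.65 and 9.49 (−1.12 ± 0.17, adjusted p = 0.0261 with the block and 0.16 without). Each same-numbered pair showed less Cyp7b1, Cyp27a1 and Cyp4v3 and more Cyp26b1 with Cdx2 shRNA. The blocked fit picked these genes for such agreement, so it is a description and no added support. Genes that did not pass also moved 1 way in all 4 pairs, among them Cyp2j6, Cyp2u1 and Cyp3a44 (lower) and Cyp20a1 (higher).

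**Figure D5:**
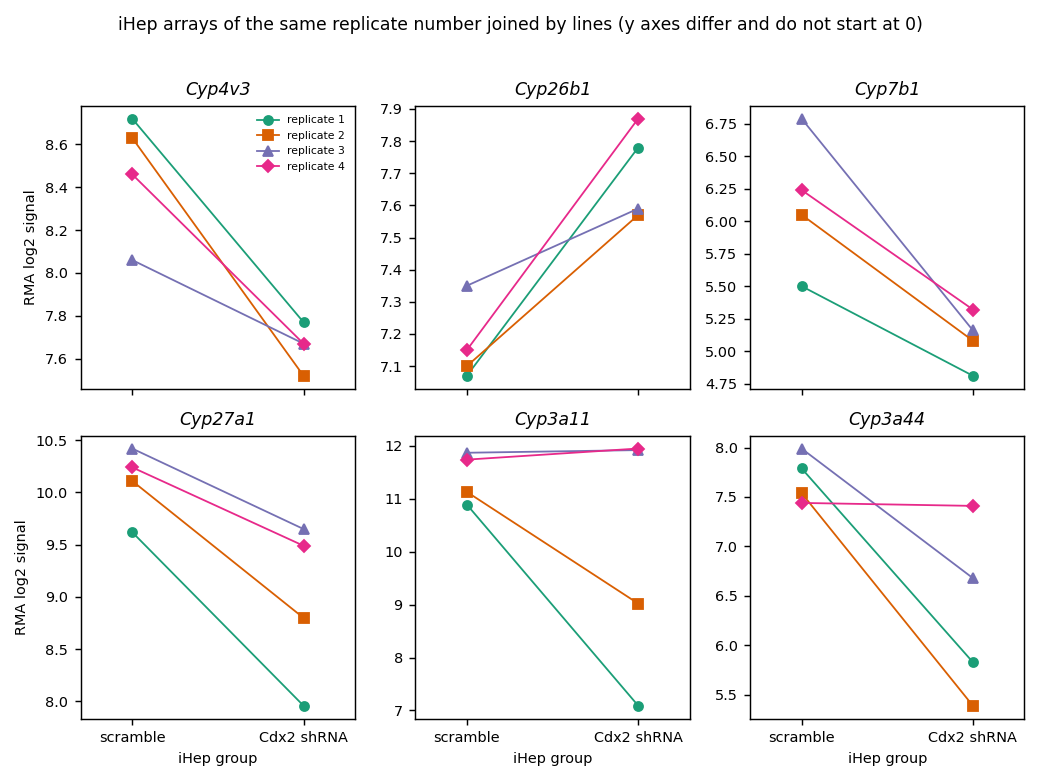
RMA log2 signals of iHep arrays with scramble and Cdx2 shRNA, joined by replicate number, for 6 genes. In Cyp4v3, Cyp7b1 and Cyp27a1 all 4 lines fall and in Cyp26b1 all 4 rise, whereas in Cyp3a11 replicates 1 and 2 lie at 7.09 and 9.02 and replicates 3 and 4 at 11.92 and 11.95 with Cdx2 shRNA.

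Cyp3a11 divided the Cdx2 shRNA arrays. Cyp3a11 was at 10.89, 11.13, 11.87 and 11.74 with scramble and at 7.09, 9.02, 11.92 and 11.95 with Cdx2 shRNA, lower in replicates 1 and 2 and level in replicates 3 and 4, and did not pass (−1.41 ± 0.99, adjusted p = 0.554). Cyp3a44 (7.79, 7.54, 7.99 and 7.44 against 5.83, 5.39, 6.68 and 7.41) and Cyp3a16 (5.98, 6.15, 3.11 and 4.04 against 4.25, 3.25, 3.08 and 3.36) had lower means without passing, −1.36 ± 0.39 (adjusted p = 0.123) and −1.34 ± 0.65 (adjusted p = 0.367). Replicates 1 and 2 stood apart from 3 and 4 across the genome as well. Over all genes tested, the deviations of the Cdx2 shRNA arrays from their group mean correlated with r = 0.57 between replicates 1 and 2 and −0.87 between 1 and 3, as a description of arrays that share a centre. Cyp1b1, high in both groups, was at 11.65 to 11.94 with scramble and at 11.76, 11.69, 10.66 and 10.93 with Cdx2 shRNA (−0.57 ± 0.24, adjusted p = 0.29).

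In induced macrophages 15 genes were tested, and Cyp27a1 moved in opposite directions under the shRNAs. Both comparisons share the 2 scramble arrays, so they are not independent. Cyp27a1 was at 6.50 and 6.42 with scramble, at 5.03 and 4.87 with Ebf1 shRNA (−1.51 ± 0.11, adjusted p = 0.00101) and at 7.36 and 7.46 in the arrays labelled Pou2af1 shRNA (0.95 ± 0.11, adjusted p = 0.00583). The 3 groups did not overlap, and both calls held when any 1 array of the groups compared was left out (−1.59 to −1.43 and 0.90 to 1.00). They ended with 1 model over all 25 arrays, which takes its spread from the other groups too, and the second also with probe sets of a gene averaged. The second Cyp27a1 probe set, at means of 4.48, 4.32 and 4.22, was under the 40th percentile. With Ebf1 shRNA 1 gene rose and 2 fell of 15 (6.21% higher, 8.16% lower and 14.4% either over all genes). Cyp51 rose from 9.99 and 9.90 to 10.52 and 10.63 (0.63 ± 0.10, adjusted p = 0.0139) and Cyp4v3 fell from 8.69 and 8.53 to 7.82 and 7.83 (−0.78 ± 0.18, adjusted p = 0.0355). In the arrays labelled Pou2af1 shRNA 2 rose and 0 fell (6.79% higher, 5.14% lower and 11.9% either), the other being Cyp4f13, from 7.75 and 7.81 to 8.26 and 8.39 (0.55 ± 0.10, adjusted p = 0.0245). The calls of Cyp4v3 and Cyp4f13 ended without any 1 of the 4 arrays compared, and that of Cyp51 without Ebf1 replicate 2 or either scramble array. Ebf1 was lower by 1.04 under its own shRNA, but Pou2af1 was at 11.34 and 11.26 in the arrays labelled with its shRNA and at 11.25 and 11.06 with scramble, so the direction drawn from that label rests on the label alone. Cyp4f18, high in every iMac array, was at −0.03 ± 0.11 and 0.05 ± 0.11.

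Partners that hand electrons or haem to P450s were counted as a list. Of 6 measured (Cyb5a, Cyb5b, Cyb5r3, Fdx1, Pgrmc1 and Alas1), 4 were lower in fetal than in adult liver (18.2% of all genes), with a median of −1.19. The haem-binding protein Pgrmc1 differed by −3.16 ± 0.29, and cytochrome b5, Cyb5a, by −0.54 ± 0.20. In iHep 2 of 6 were lower than in adult liver (median −0.33; 18.2% of all genes were lower). In engrafted against cultured iHep 1 of 6 was higher and 2 were lower (18.2% higher and 29.7% lower over all genes). In engrafted iHep Pgrmc1 was at 10.19 and 10.41 and Cyb5a at 10.64 and 10.42. These 2 genes differed from cultured iHep by −2.99 ± 0.27 and −2.61 ± 0.18. Against colon 0 of 6 were higher and 1, Alas1, was lower in engrafted iHep (9.66% of all genes). These are counts of a list, and the medians are not a test against the P450 genes.

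Transcription factors known to control P450 genes were measured in 27 of 28 cases, and 26 were tested in the liver, iHep and colon arrays. In fetal against adult liver 15 were lower and 0 higher (18.2% of all genes were lower). The bile acid receptor Nr1h4 differed by −5.74 ± 0.24, Onecut1 by −4.67 ± 0.33, the fatty acid receptor Ppara by −4.59 ± 0.40, CAR (Nr1i3) by −4.36 ± 0.24 and PXR (Nr1i2) by −3.78 ± 0.34. In iHep against adult liver 17 were lower and 1, the clock-controlled Dbp, was higher (18.2% lower and 37.8% higher over all genes). CAR was at 5.37, 4.95 and 5.09 in iHep and at 9.71 and 9.65 in adult liver, and PXR at 6.05, 5.85 and 6.68 against 9.26 and 9.76. The aryl hydrocarbon receptor Ahr was at 7.14, 7.57 and 7.83 in iHep, 10.71 and 10.55 in adult liver and 9.18 on both colon arrays. In engrafted against cultured iHep 12 were higher and 3 lower, with a median of 0.69 (18.2% higher and 29.7% lower over all genes). Nr1h4 rose by 3.95 ± 0.22, Foxa2 by 2.33 ± 0.25, the vitamin D receptor Vdr by 2.13 ± 0.66 and Ahr by 1.71 ± 0.29, while Tef changed by −3.48 ± 0.25 and the glucocorticoid receptor Nr3c1 by −1.19 ± 0.31. CAR stayed under the 40th percentile in engrafted iHep (4.96 and 4.81) and in colon (5.09 and 5.10). With Cdx2 shRNA 1 of 24 passed (2.21% of all genes), Hnf4a, lower by 0.89 ± 0.18 (adjusted p = 0.044). Since iHep were made with retroviral Hnf4a, whether its probe set reads that copy or the cell's own was not tested.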

How the data were processed

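RNA of 25 samples (100 ng, biotin labelled) was hybridised to Affymetrix whole-genome mouse arrays. The deposited values are log2 signals per probe set, summarised with RMA per the submitters' processing notes; its version and settings are not given in the sources used here. They ran from 2.05 to 15.11 with array medians of 6.11 to 6.30, so the number of arrays, not read depth, limits precision. Of 45101 probe sets, 34945 had 1 gene symbol, 932 several, 9160 none listed and 64 were controls. Only probe sets with 1 symbol were used, and each gene was read by the probe set of highest mean over all arrays.

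Differences came from 3 linear models (limma 3.58.1, R 4.3.3): iHep, livers, engrafted iHep and colon (6 residual degrees of freedom), scramble and Cdx2 shRNA iHep (6), and iMac (3). Genes above the 40th percentile in at least 2 arrays of a model were tested, with 2-sided p-values adjusted by Benjamini-Hochberg over all of them and called under 0.05. Errors are limma's SE. The fit was tested on simulated data. Sequences come from RefSeq's promoter table, matched by symbol.

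The genes named are, per comparison, up to 6 highest and 6 lowest called genes without overlap between groups, up to 4 not called, a list of well-known P450s, and members of a subfamily being described. Members and gene lists were chosen with earlier results of these data known. Same-numbered Cdx2 and scramble arrays deviated together (r = 0.53, 0.32, 0.58 and 0.44, over all genes). Cdx2 shRNA replicate 2 correlated more with scramble replicate 1 (r = 0.41) than with its own number. The main Cdx2 fit left the numbers out, and the fit with the block took them as pairs. In the other comparisons r of same-numbered arrays was −0.15 to 0.10. Alternatives tried were no filter, a 60th percentile filter, averaging the probe sets of a gene, leaving out probe sets that match several transcripts, repeated quantile normalization, median centring, a trended robust fit, 1 model over all arrays, the replicate number as a block, and leaving out each array.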

Additional observations from a re-analysis of the deposited data

Results flagged for a closer look

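Cyp17a1 in scramble iHep had 1 array apart, the lowest at 5.77 against 5.80 for the nearest. That gap was 0.85 of the group's range, past Dixon's limit for 4 arrays, at a level near the 40th percentile. Among 40 checks of a gene in a group, chance flags about 1 in 20.

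The 4 Cyp probe sets with more than 1 symbol were outside the comparisons, and each gave a clear signal. That of Cyp3a41b and Cyp3a41a, known as female-predominant, had a mean of 14.28 in adult liver and 2.77 in colon. It read 10.05 in scramble iHep (9.87 to 10.21), 6.54 in Cdx2 shRNA iHep (4.43 to 8.52) and 6.32 in iHep (3.41 to 8.15). The probe set of Cyp2a5 and Cyp2a4 was at 13.70 in adult liver, 5.29 in colon and 7.47 in iHep, and that of Cyp4a31 and Cyp4a10 at 12.62 in adult liver and 3.62 in colon. The probe set of Cyp4f37 and Cyp4f16 was highest in colon at 9.71, against 6.13 in adult liver and 7.88 in engrafted iHep. Which of the paired genes gave the signal was not tested, and none of these differences was tested.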

How the results depend on the processing

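Over the 284 differences of named genes and the alternatives tried, 3662 values kept their call or lack of one, 136 lost a call and 75 gained one. Direction was compared only where a value was called in the main or the alternative fit, and 1 of those reversed. This was Cyp20a1 in adult liver against colon, at −0.40 with the mean of its probe sets (1.42 otherwise). With all 25 arrays in 1 limma model the P450 genes called were 24 for engrafted iHep against colon (13 otherwise), 1 for Cdx2 shRNA (2 otherwise), 0 for Ebf1 shRNA (3 otherwise) and 0 for Pou2af1 shRNA (2 otherwise). Without a filter the last was 1. With the replicate block, taken as pairs for Cdx2 shRNA, 4 genes were called there. In the other comparisons the numbers are only shared, and the block gave 49, 53, 17, 31, 23, 12, 54, 2 and 2 calls, in the order fetal against adult liver, iHep against adult liver, fetal liver and colon, engrafted against iHep and colon, adult liver against colon, Ebf1 and Pou2af1 shRNA. Crossing the numbers of fetal and adult liver gave 49. Leaving out 1 array gave 36 to 48 calls for fetal against adult liver, 40 to 54 for iHep against adult liver, 10 to 18 against fetal liver and 25 to 34 against colon. It gave 21 to 30 for engrafted against cultured iHep, 5 to 14 against colon, 38 to 51 for adult liver against colon, 0 to 2 for Cdx2 shRNA, 1 to 2 for Ebf1 shRNA and 1 to 1 for Pou2af1 shRNA. Without either adult array the P450 genes tested fell from 62 to 51 in the 3 comparisons with adult liver, since a gene had to pass the filter in 2 arrays, and the lowest counts there come from those fits. Otherwise the cause was not tested.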
